A study of Mus musculus with 9 samples.

Results

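The TREM receptors of mouse bone marrow-derived macrophages (Mϕs) and their shared adaptor were described by 6 genes: Trem1, Trem2, Trem3, Treml2, Treml4 and Tyrobp. They were found by matching the Ensembl identifiers of the deposited table to these symbols, which gave 6 of the 53379 genes in the table. All 6 had a mean of at least 0.5 FPKM (fragments per kilobase of exon and per 1000000 fragments of the library) over the 9 libraries, as had 12824 genes in all, and all 6 were tested. Bone marrow cells of C57BL/6 mice were first grown for 3 days in CSF-1 (10 ng/ml), the cytokine that drives Mϕ differentiation. For the next 4 days the 3 control cultures received 10 ng/ml CSF-1 alone, 3 cultures received CSF-1 plus 10 ng/ml IL-4, and 3 received CSF-1 plus 100 ng/ml IL-6. CSF-1 was therefore present in every group, and the Mϕs carried no genetic change. These doses and times were read from the sample labels, whose treatment text has typing errors. The study's methods give the same times and the same CSF-1 and IL-6 doses, but 100 ng/ml for IL-4. Its figure legends give another dose for both cytokines and a shorter treatment. The comparisons asked how each cytokine altered the Mϕ state, here for a receptor family that senses lipids and tissue damage.

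TREM receptors are single-pass membrane proteins with an immunoglobulin-like domain and almost no signaling tail of their own. TREM1, TREM2, TREM3 and TREML4 pair through a charged residue in the membrane with DAP12, the product of Tyrobp, whose phosphorylated tyrosine motif recruits the kinase SYK. TREM1 is known for amplifying inflammatory responses of neutrophils and monocytes, and TREM2 for sensing lipids and apolipoproteins in microglia and tissue Mϕs. TREML2 has a longer tail of its own and is not known to need DAP12.

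The 5 receptor genes lie in a cluster on the plus strand of chromosome 17 in GRCm38, in the order Trem1 (chr17:48232768-48246924), Trem3 (chr17:48247777-48258841), Treml4 (chr17:48264295-48275360), Treml2 (chr17:48299498-48312533) and Trem2 (chr17:48346401-48354147). Tyrobp lies elsewhere, at chr7:30413760-30417585 on the plus strand, beside Hcst on the minus strand. No exon of the 6 genes overlaps an exon of another gene in GENCODE M21. The RefSeq promoter table (GRCm38.p6) matched 3 of the 6 members, Trem1, Trem2 and Treml4. Their 250 bases before the transcription start are shown because Trem1 and Treml4 were highest with IL-6 and Trem2 was lowest with it. Capitals mark matches, on either strand, to the GAS element of STAT factors (TTCNNNGAA), the core of the PU.1 site (GAGGAA, or TTCCTC on the other strand) and the AP-1 site (TGANTCA).
Trem1 (chr17:48232489-48232738, plus strand): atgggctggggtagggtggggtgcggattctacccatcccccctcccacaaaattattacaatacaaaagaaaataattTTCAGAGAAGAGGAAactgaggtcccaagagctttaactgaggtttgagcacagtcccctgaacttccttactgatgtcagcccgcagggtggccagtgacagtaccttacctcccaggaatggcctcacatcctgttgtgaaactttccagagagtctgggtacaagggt
Trem2 (chr17:48346151-48346400, plus strand): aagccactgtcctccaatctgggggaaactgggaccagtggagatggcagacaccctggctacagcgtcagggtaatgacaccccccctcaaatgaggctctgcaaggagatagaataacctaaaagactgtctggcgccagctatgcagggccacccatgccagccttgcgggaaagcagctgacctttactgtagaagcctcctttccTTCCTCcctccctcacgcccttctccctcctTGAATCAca
Treml4 (chr17:48264045-48264294, plus strand): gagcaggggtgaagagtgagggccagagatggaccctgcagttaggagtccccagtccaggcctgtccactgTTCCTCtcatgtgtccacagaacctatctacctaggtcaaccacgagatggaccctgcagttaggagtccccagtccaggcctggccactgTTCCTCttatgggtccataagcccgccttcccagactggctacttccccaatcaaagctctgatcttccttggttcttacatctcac
The run of capitals in Trem1 holds a GAS match, 171 to 163 bases before the start, and a PU.1 core that adjoins it, 162 to 157 bases before. Trem2 has a PU.1 core 40 to 35 bases before its start and an AP-1 match 9 to 3 bases before. Treml4 has 2 PU.1 cores, 178 to 173 and 87 to 82 bases before its start. Of 32851 promoter windows of this length, 7.02% hold the GAS letters, 23.3% the PU.1 core and 6.75% the AP-1 letters. The spaced element preferred by STAT6 (TTCNNNNGAA, in 5.85% of windows) and the paired C/EBP letters (TTGCNNAA, in 9.56%) were searched too and are in none of the 3 windows.

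The libraries held 29988160 to 39909571 fragments each. Macrophage markers were abundant in every library, with summed values over 6 genes of 2740 to 2760 FPKM in controls, 1290 to 1530 with IL-4 and 2120 to 2210 with IL-6. Neutrophil and granule transcripts were also abundant (10 genes, 4750 to 8470, 2140 to 3980 and 7900 to 11000 FPKM in the same order), as were platelet transcripts (5 genes, 319 to 488, 147 to 225 and 1230 to 2490 FPKM), while the 6 lymphoid and 5 dendritic cell markers summed to at most 19.8 and 5.36 FPKM. Both cytokines acted on the cultures: Socs3 rose with IL-6 by 5.12 ± 0.262 (log2 fold change ± SE) and Arg1 rose with IL-4 by 10.58 ± 0.359. The libraries fell into 2 sets by 13 intestinal genes, which took 32.1 to 48 per 1000000 fragments in the 3 controls and IL-4 library 1, and 0.099 to 0.245 in IL-4 libraries 2 and 3 and the 3 IL-6 libraries. A sum over 11 muscle genes split the libraries the same way (1.94 to 2.21 against 9.92 to 18.4 per 1000000). Tnni2, also on the muscle list, was left out of this sum and was highest in controls. Its means were 5.65, 1.25 and 2.11 FPKM in control, IL-4 and IL-6 libraries. With all 12 muscle genes the summed FPKM of the groups overlapped (5.51 to 8.15, 1.89 to 9.85 and 7.58 to 13.9 in the same order). The set, defined by the intestinal genes, and IL-6 treatment cannot be told apart when IL-6 is compared with control. IL-4 library 3 stood apart by gene length. Its median log2 difference from the mean of the other libraries of its group was 0.36 in the quartile of shortest genes (up to 1902 bases of exon). In the quartile of longest genes (from 6081 bases) this difference was -0.96.

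Trem1, Treml2, Trem3 and Treml4 shared an order of groups, lowest with IL-4 and highest with IL-6 without overlap, and Trem2 was lowest with IL-6. Trem1 and Treml2 rose with IL-6, Trem3 and Treml4 fell with IL-4, and Trem2 fell with IL-6. Trem1 was also lower with IL-4 (log2 fold change -0.96, limma adjusted p = 0.00737), just under the size needed for a call. Whether Trem1 and Treml2 differ from Trem3 and Treml4 in their response was not tested. Tyrobp passed no test. Here "called" means that limma's test gave an adjusted p under 0.05 and that the log2 fold change was 1 or more in size. With IL-4 against control 2 of 6 members were called, both lower, where 13.9% of all tested genes were called, 5.02% higher and 8.89% lower. With IL-6 against control 3 of 6 were called, 2 higher and 1 lower, where 5.38% of tested genes were called, 3.49% higher and 1.89% lower. Between the cytokines 4 of 6 were called, each higher with IL-6, where 20.4% of tested genes were called, 13.6% higher and 6.82% lower. By adjusted p alone the members passing numbered 3, 3 and 4 in the same order, where 24.8%, 8.4% and 34.1% of tested genes passed. The median log2 fold change of the 6 members was -0.74 with IL-4 (-0.20 over all tested genes), 0.66 with IL-6 (0.00 over all tested genes) and 2.25 with IL-6 against IL-4 (0.22). The shift over all genes with IL-4 was -0.01 after each library was rescaled by its median ratio. That step itself removes such a shift, so this value does not test it. In bulk RNA, fewer cells of a type and less RNA per cell cannot be told apart.

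**Figure D1:**
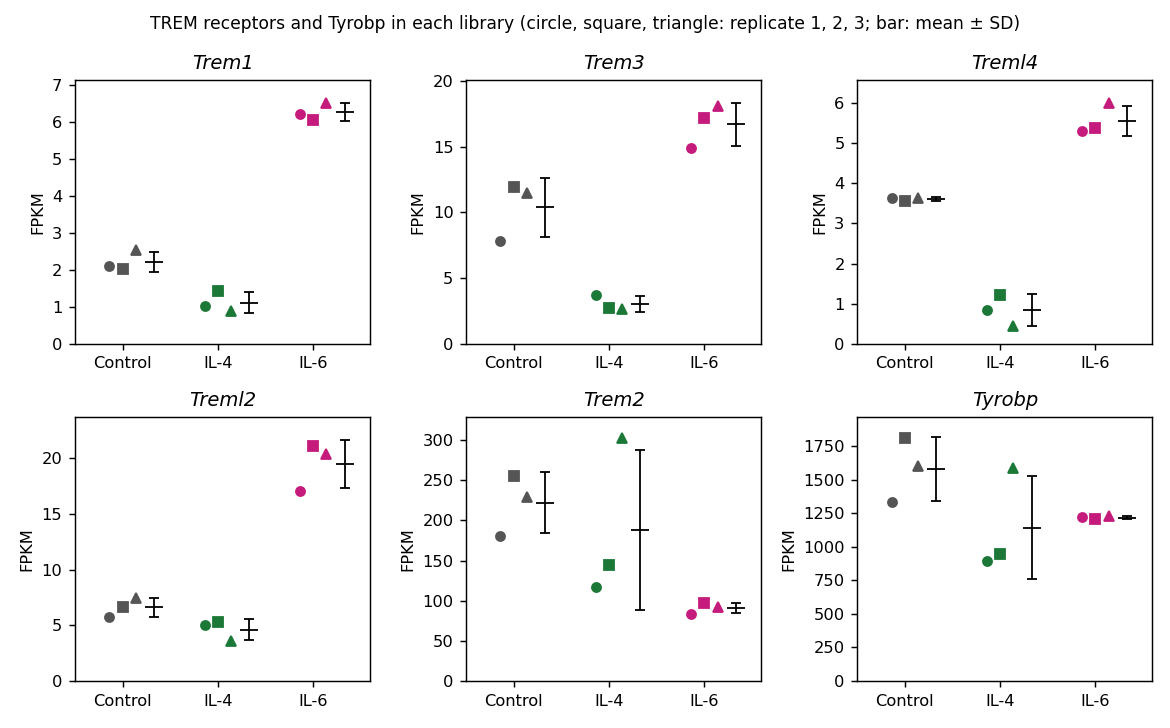
FPKM of the 6 members in each library (y axis, linear, from 0) by group (x axis). Symbols are the replicate numbers and bars are the mean ± SD of 3 libraries. For Trem1, Trem3, Treml4 and Treml2 the IL-4 libraries lie lowest and the IL-6 libraries highest, with no overlap. Trem2 is lowest with IL-6, and IL-4 library 3 lies above the other IL-4 libraries in Trem2 and Tyrobp.

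Trem1, the amplifying receptor, was scarce in control Mϕs, at 2.10, 2.01 and 2.52 FPKM. IL-4 libraries held 1.01, 1.42 and 0.878 FPKM, and IL-6 libraries held 6.23, 6.05 and 6.52 FPKM. Each IL-4 library was below each control and each IL-6 library was above. With IL-6 Trem1 rose 2.83-fold (log2 fold change 1.47 ± 0.191 SE, adjusted p = 0.00282). With IL-4 the mean was 0.498 of control (-0.96 ± 0.191, adjusted p = 0.00737), a difference that passed the p threshold but not the bound on size. It was called without control library 2 (-1.03, adjusted p = 0.0216) and without IL-4 library 2 (-1.15, adjusted p = 0.0039). Between the cytokines Trem1 differed 5.69-fold (2.43, adjusted p = 4.07e-05).

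Treml2, which encodes the receptor with its own tail, had the same order of groups. Controls held 5.74, 6.68 and 7.41 FPKM, IL-4 libraries 4.99, 5.27 and 3.57 FPKM, and IL-6 libraries 17.1, 21.1 and 20.3 FPKM. The 3 groups did not overlap. Treml2 rose 2.95-fold with IL-6 (1.55 ± 0.182, adjusted p = 0.00181), whereas the IL-4 difference did not pass (-0.52 ± 0.182, adjusted p = 0.0706). IL-6 exceeded IL-4 by 4.23-fold (2.07, adjusted p = 8e-05).

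Trem3 encodes a DAP12-coupled receptor that is functional in mice. Its controls held 7.81, 11.9 and 11.4 FPKM, the IL-4 libraries 3.68, 2.69 and 2.65 FPKM, and the IL-6 libraries 14.9, 17.2 and 18.0 FPKM. IL-4 libraries were all lower than controls and IL-6 libraries all higher. Trem3 fell with IL-4 to 0.289 of control (-1.75 ± 0.204, adjusted p = 0.000555), and the IL-6 difference of 1.61-fold did not pass (0.70 ± 0.204, adjusted p = 0.0797). Between the cytokines the difference was 5.56-fold (2.45, adjusted p = 6.23e-05).

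Treml4, a DAP12-coupled receptor known for sensitizing endosomal Toll-like receptor signaling, was nearly the same in the controls, at 3.64, 3.56 and 3.62 FPKM. With IL-4 it was 0.850, 1.22 and 0.439 FPKM, from 58, 74 and 35 fragments, and with IL-6 it was 5.31, 5.40 and 6.00 FPKM. The groups did not overlap, and the lowest library was IL-4 library 3. Treml4 fell with IL-4 to 0.232 of control (-2.08 ± 0.291, adjusted p = 0.00144). The IL-6 mean was 1.54 times control and did not pass (0.61 ± 0.291, adjusted p = 0.283). IL-6 exceeded IL-4 by 6.65-fold (2.69, adjusted p = 0.000273).

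Trem2, the lipid-sensing receptor, was the most abundant TREM gene in every library. It held 181, 256 and 229 FPKM in controls, 117, 144 and 302 FPKM with IL-4, and 83.8, 97.3 and 91.6 FPKM with IL-6. Every IL-6 library was below every control and every IL-4 library, and the IL-4 libraries lay on both sides of the controls. With IL-6 Trem2 fell to 0.409 of control (-1.28 ± 0.323, adjusted p = 0.0492). This call stood at the edge of the threshold. Leaving out any control library (adjusted p 0.0822 to 0.178), any IL-6 library (0.130 to 0.167) or IL-4 library 2 (0.071) ended it, and leaving out IL-4 library 3 lowered the adjusted p to 0.000787. The log2 fold change stayed between -1.41 and -1.17 in these fits. With IL-4 Trem2 was 0.847 of control (-0.35 ± 0.323, adjusted p = 0.464), and without IL-4 library 3 the difference was -0.76 (adjusted p = 0.00791), still short of the bound on size. IL-6 against IL-4 gave -0.92 ± 0.323 (adjusted p = 0.0575), which passed both bounds without IL-4 library 1 (-1.20, adjusted p = 0.0201). Without IL-4 library 3 it was -0.52 (adjusted p = 0.0334).

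Tyrobp, the adaptor gene, was abundant throughout. Controls held 1335, 1810 and 1608 FPKM, IL-4 libraries 896, 948 and 1591 FPKM, and IL-6 libraries 1222, 1207 and 1228 FPKM. The IL-6 libraries lay close together and below each control, and IL-4 library 3 lay within the range of the controls. Tyrobp with IL-4 was 0.723 of control (-0.51 ± 0.228, adjusted p = 0.146) and with IL-6 it was 0.770 of control (-0.37 ± 0.228, adjusted p = 0.428). Without IL-4 library 3 the IL-4 difference was -0.77 (adjusted p = 0.00289). Between the cytokines the fold was 1.07 (0.14 ± 0.228, adjusted p = 0.634).

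**Figure D2:**
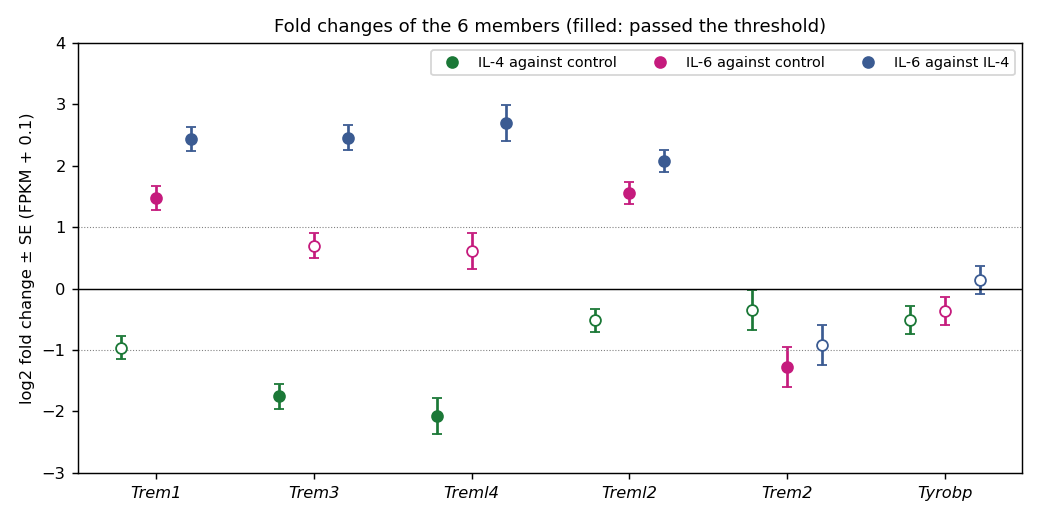
Log2 fold change of FPKM + 0.1 (y axis) for each member (x axis) in the 3 comparisons, with the standard error of the limma fit. Filled points were called, and dotted lines mark a size of 1. Trem1, Trem3, Treml4 and Treml2 lie between 2.07 and 2.69 for IL-6 against IL-4, and Trem2 lies at -0.92.

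The 6 members differed in how far their groups separated. With IL-4 the libraries of 4 members lay wholly below control (of all tested genes 40.3% did not overlap, 13.5% above and 26.8% below), and Trem2 and Tyrobp overlapped. With IL-6 no member overlapped control, with 4 above and 2 below (of all tested genes 43.2% did not overlap, 20.0% above and 23.2% below). Between the cytokines 4 members lay above and Trem2 below (of all tested genes 56.9% did not overlap, 36.3% above and 20.6% below), and Tyrobp overlapped. The 3 comparisons share libraries and are not independent of each other.

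The set of libraries touched the IL-6 calls. With the set as a term, a fit that separates it from treatment only through IL-4 library 1 against IL-4 libraries 2 and 3, no member was called by limma for IL-6 against control, although 3 were higher and 1 lower at an unadjusted p under 0.05. Trem1 was then at 1.33 (adjusted p = 0.135), Treml2 at 1.75 (adjusted p = 0.0605) and Trem2 at -2.11 (adjusted p = 0.1). For IL-4 against control, Trem3 (-1.45, adjusted p = 0.013) and Treml4 (-1.97, adjusted p = 0.0294) were still called. Within the set that holds the controls, IL-4 library 1 stood at 0.354 of the control mean for Trem3, 0.235 for Treml4, 0.454 for Trem1, 0.755 for Treml2, 0.528 for Trem2 and 0.566 for Tyrobp. Within the other set, IL-6 exceeded the mean of IL-4 libraries 2 and 3 by 5.45-fold for Trem1, 6.26-fold for Trem3, 4.42-fold for Treml2 and 6.70-fold for Treml4. Trem2 was at 0.407 and Tyrobp at 0.961 in that comparison. Against IL-4 library 2 alone Trem2 with IL-6 was at 0.630 and Tyrobp at 1.29.

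Transcripts used as markers of neutrophils and platelets moved with some members. Of the 10 neutrophil and granule markers 9 were called lower with IL-4, as were Trem3 and Treml4, and 10 were called higher with IL-6 than with IL-4. None of the 10 was called with IL-6 against control by limma (2 higher at an unadjusted p under 0.05) or by voom. Their median log2 fold change there was 0.44 (0.00 over all tested genes). In that comparison Trem1 and Treml2 were called higher, and Trem3 and Treml4 were not called. Of the 5 platelet markers 4 were called higher with IL-6 against control and 2 were called lower with IL-4. Of the 6 macrophage markers 3 were called lower with IL-4 and none was called with IL-6 against control by limma, with 1 higher and 1 lower at an unadjusted p under 0.05. The 1 lower was Cd68 (-0.66 ± 0.139, adjusted p = 0.0231), which passed the p threshold but not the bound on size. Which cells these transcripts came from, and the part of such cells in the differences of the members, was not tested.

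The make-up of the 4 DAP12-coupled TREM receptors was compared within each library, where scaling cancels but a trend with gene length does not. Receptors outside the family that couple to DAP12 were left out of the sums. Cd300lb, among them, had means of 95.8, 114 and 52.9 FPKM in control, IL-4 and IL-6 libraries. It is named here after its value was seen. Trem2 made up 93.2 ± 0.389% (SD, n = 3) of the summed FPKM of Trem1, Trem2, Trem3 and Treml4 in controls, 96.9 ± 1.65% in IL-4 and 76.1 ± 1.16% in IL-6 libraries. The size of this difference depends on the gene length used, and the values by coding transcript are given after the other ratios. No 2 groups overlapped (two-sided exact permutation p = 0.1 in each pair, the smallest that 3 against 3 libraries allow). Per Tyrobp FPKM, Trem2 stood at 0.140 ± 0.00362 in controls, 0.158 ± 0.0300 in IL-4 and 0.0746 ± 0.00602 in IL-6 libraries. The IL-6 libraries, at 0.0686, 0.0806 and 0.0746, were below those of both other groups (exact permutation p = 0.1), whereas IL-4 and control overlapped (exact permutation p = 0.5). The other 3 receptors summed to 0.0102 ± 0.000643 per Tyrobp FPKM in controls. They summed to 0.00477 ± 0.00199 with IL-4 and 0.0234 ± 0.00165 with IL-6, which is 0.465 and 2.28 times control. IL-4 library 3, which stood apart by gene length, was the lowest at 0.00249, with IL-4 libraries 1 and 2 at 0.00618 and 0.00563. It also had the highest Trem2 share, 98.7%. The part of gene length in these ratios was not tested. Again no 2 groups overlapped (exact permutation p = 0.1). The 4 receptors together came to 0.150 per Tyrobp FPKM in controls, 0.163 in IL-4 and 0.0980 in IL-6 libraries.

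**Figure D3:**
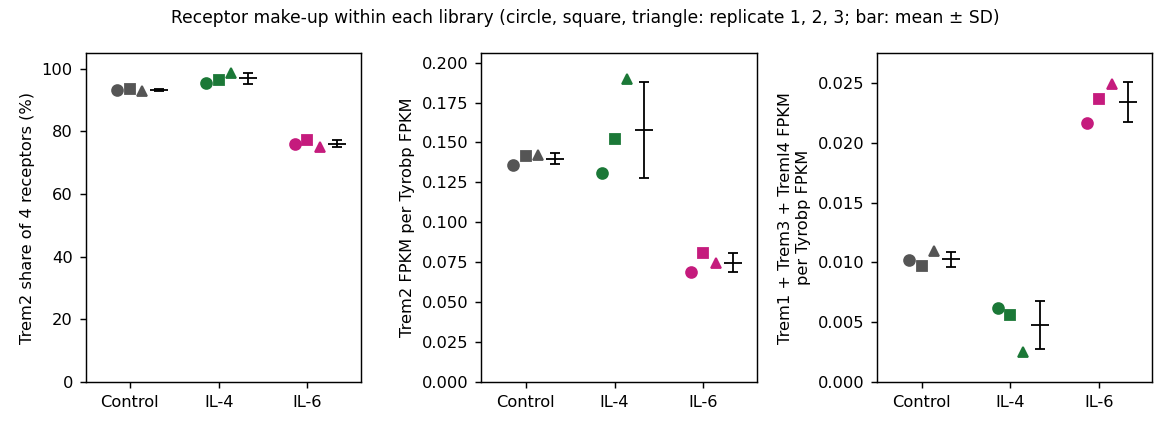
Ratios within each library by group (x axis): Trem2 as a percentage of the summed FPKM of Trem1, Trem2, Trem3 and Treml4 (left), Trem2 per Tyrobp FPKM (middle) and Trem1 + Trem3 + Treml4 per Tyrobp FPKM (right). Symbols are the replicate numbers and bars the mean ± SD of 3 libraries. IL-6 libraries are lowest in the first and second panel, from 74.97 to 77.29% and from 0.0686 to 0.0806, and highest in the third, from 0.0216 to 0.0249.

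These levels depend on the length by which fragments were divided. The exons of all Trem2 transcripts cover 4946 bases, one retained-intron transcript included, and its longest coding transcript has 1088 bases, a ratio of 4.55. The ratio is 1.12 for Tyrobp, 1.15 for Treml4, 1.23 for Treml2 and 1.00 for Trem1 and Trem3. Divided by the coding transcript, Trem2 came to 1009, 854 and 413 fragments per kilobase and per 1000000 in control, IL-4 and IL-6 libraries, and Tyrobp to 1770, 1279 and 1362. All fragments of a gene were kept in this division, also any that fell on exon bases outside the coding transcript. The values are too high by the share of such fragments, which was not tested. Shares and ratios by the coding transcript carry the same limit. The fold change of a gene between groups does not depend on this choice, but the shares and sums over receptors do. By the coding transcript Trem2 made up 98.4 ± 0.101% of the 4 receptors in controls, 99.3 ± 0.391% in IL-4 and 93.4 ± 0.397% in IL-6 libraries. These groups too did not overlap (exact permutation p = 0.1 in each pair). The 4 receptors together then came to 0.579, 0.646 and 0.325 per Tyrobp in control, IL-4 and IL-6 libraries, a ratio of IL-6 to control of 0.562 where FPKM gave 0.653.

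By FPKM the order of the members in controls was Tyrobp, Trem2, Trem3, Treml2, Treml4 and Trem1, and no neighbours overlapped. With IL-4 the ranges of Treml2 and Trem3 overlapped, as did those of Trem1 and Treml4. With IL-6 Treml2 and Trem3 overlapped again, and Trem1 (6.05 to 6.52 FPKM) lay above Treml4 (5.31 to 6.00 FPKM). By the coding transcript Trem1 (6.06 to 6.53) and Treml4 (6.08 to 6.87) overlapped with IL-6, and the place of Treml2 was not computed.

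The other tested genes of the chromosome 17 cluster placed the members among their neighbours. Upstream of Trem1, 9830107B12Rik (Trem5 in RefSeq) fell with IL-4 from 1.18 ± 0.0648 to 0.339 ± 0.0982 FPKM (-1.57 ± 0.225, adjusted p = 0.00149) and was at 1.60 ± 0.165 FPKM with IL-6, which was not called against control (adjusted p = 0.368). B430306N03Rik (Treml6 in RefSeq), between Treml2 and Trem2, held 26.1 ± 0.956, 25.4 ± 7.29 and 29.1 ± 1.08 FPKM in control, IL-4 and IL-6 libraries and passed no test (adjusted p 0.364 to 0.781). Treml1, which encodes a receptor of platelets, lies just past Trem2. It was at 8.36 ± 0.644, 5.68 ± 1.12 and 14.5 ± 3.86 FPKM and was called between the cytokines (1.32 ± 0.214, adjusted p = 0.00219). Nfya and Oard1, beyond Treml1, passed no test. A530064D06Rik, beside 9830107B12Rik, was called between the cytokines (1.09 ± 0.107, adjusted p = 0.000146) and is named here after its value was seen. Foxp4, a forkhead factor gene that is on the list but lies before the cluster (chr17:47867133-47924645), rose with IL-6 (2.12 ± 0.146, adjusted p = 0.000137). Of the 6 tested genes on that list 1 was called lower with IL-4, and Foxp4 was the 1 called higher with IL-6 against control.

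**Figure D4:**
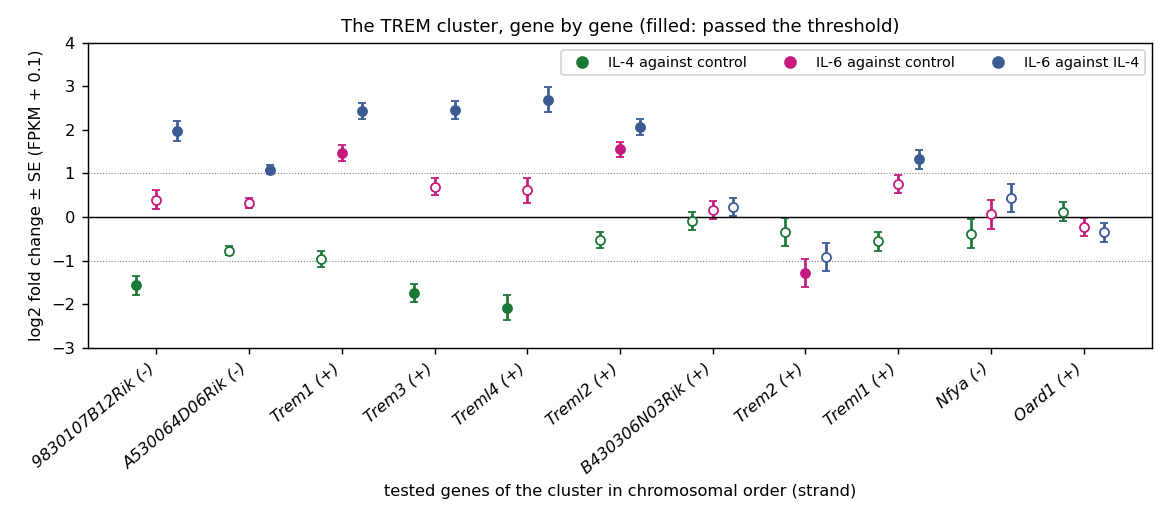
Log2 fold change of FPKM + 0.1 (y axis, with standard error) of the tested genes of the TREM cluster in chromosomal order (x axis, strand in brackets). Filled points passed the threshold and dotted lines mark a size of 1. For IL-6 against IL-4 the values from 9830107B12Rik to Treml2 lie between 1.09 and 2.69, B430306N03Rik lies at 0.24 and Trem2 at -0.92.

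DAP12 has partner adaptors and other receptors. Fcer1g, the adaptor of Fc receptors, held 902 ± 148 FPKM in controls, 496 ± 142 in IL-4 and 812 ± 27.6 in IL-6 libraries. Its IL-4 difference passed the p threshold but not the bound on size (-0.89 ± 0.208, adjusted p = 0.0164). Hcst, which encodes DAP10, held 26.9 ± 7.36, 14.8 ± 8.08 and 17.4 ± 2.14 FPKM and passed no test. Counts in this and the later lists stand beside the shares over all tested genes, 5.02% called higher and 8.89% lower with IL-4. With IL-6 against control these shares were 3.49% and 1.89%. Of 12 listed receptors other than TREMs that couple to DAP12, 9 were tested, of which 3 were called lower with IL-4 and none higher. The activating receptor genes Pilrb2 (-2.43 ± 0.119, adjusted p = 6.06e-06) and Pilrb1 (-1.97 ± 0.153, adjusted p = 6.26e-05) fell, as did Siglech (-1.75 ± 0.326, adjusted p = 0.00599), which is also one of the dendritic cell markers. With IL-6 4 of the 9 were called higher and none lower. They were the signal-regulatory protein genes Sirpb1c (2.82 ± 0.286), Sirpb1a (2.34 ± 0.243) and Sirpb1b (1.43 ± 0.214), and Clec5a (1.36 ± 0.187), a C-type lectin named here after its value was seen. The Sirpb1 genes and the Pilrb genes are close copies, so the split of fragments between the copies is uncertain. The median log2 fold change of the 9 genes was -0.53 for IL-4 and 0.62 for IL-6 (-0.20 and 0.00 over all tested genes). Cd200r3, Siglec15 and Klrk1 lay under the filter and are named here after their values were seen. In the limma fit without a filter, Cd200r3 (2.10 ± 0.257, adjusted p = 0.00158) and Siglec15 (1.91 ± 0.456, adjusted p = 0.0351) were higher with IL-4 than in controls. Their means with IL-4 were 0.991 and 0.429 FPKM. Klrk1 overlapped control.

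Downstream of DAP12, Syk held 77.5 ± 10.1 FPKM in controls, 46.8 ± 16.5 with IL-4 and 82.8 ± 1.24 with IL-6, and was not called (adjusted p = 0.0609 and 0.857 against control). Of 17 tested signaling genes 2 rose and 2 fell with IL-4, where 5.02% of all tested genes were called higher and 8.89% lower. The Src-family kinase genes Fyn and Src rose, Fyn from 6.11 ± 0.341 to 21.9 ± 5.23 FPKM (1.80, adjusted p = 0.000341) and Src by 1.29 ± 0.223 (adjusted p = 0.00418). Pik3r1, a regulatory subunit of PI3-kinase, fell (-1.37 ± 0.391, adjusted p = 0.0353), as did the exchange factor gene Vav1 (-1.15 ± 0.123, adjusted p = 0.000323), which is named here after its value was seen. With IL-6 2 of the 17 rose and 1 fell. Fgr, of the same kinase family, rose from 9.63 ± 0.423 to 47.8 ± 0.774 FPKM (2.30, adjusted p = 0.000176), Src rose by 2.23 ± 0.223 (adjusted p = 0.000812) and the linker gene Lat2 fell by 1.39 ± 0.182 on the log2 scale (adjusted p = 0.00312). Of 8 negative regulators 2 rose and 2 fell with IL-4, led by Cblb, an E3 ubiquitin ligase (2.71 ± 0.257), and the docking protein genes Dok2 (2.63 ± 0.163) and Dok3 (-1.53 ± 0.177). With IL-6 none of the 8 was called against control by limma or voom, or passed an unadjusted p of 0.05. The median log2 fold change of the signaling genes was -0.44 for IL-4 and 0.25 for IL-6, and that of the negative regulators was -0.44 and 0.07. Over all tested genes it was -0.20 and 0.00.

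Of 9 genes for ligands, partners and sheddases of TREMs, 3 fell with IL-4 and none rose. Apoe, a ligand of TREM2, fell from 9377 ± 1592 to 399 ± 114 FPKM (-4.58 ± 0.233, adjusted p = 8.77e-06). Pglyrp1, a ligand of TREM1 and a granule protein, fell by 1.16 ± 0.324 on the log2 scale (adjusted p = 0.0332), and Adam17, a sheddase of TREM2, fell by 1.07 ± 0.279 (adjusted p = 0.0247). With IL-6 2 of the 9 rose and none fell. Clu, which encodes the TREM2 ligand clusterin, rose from 1.26 ± 0.549 to 10.2 ± 3.70 FPKM (2.93 ± 0.366, adjusted p = 0.00252), and Ms4a6d rose from 106 ± 3.87 to 266 ± 5.47 FPKM (1.33 ± 0.102, adjusted p = 0.000215). Apoe with IL-6 was at 6515 ± 958 FPKM and was not called (-0.52 ± 0.233, adjusted p = 0.249). The list's median was -0.80 for IL-4 and 0.41 for IL-6 (-0.20 and 0.00 over all tested genes).

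Of 20 lipid-associated genes often described together with Trem2, 6 rose and 3 fell with IL-4 and 11 were not called. With IL-6 2 rose, 8 fell and 10 were not called. Itgax, an integrin gene, rose with IL-4 from 20.5 ± 2.93 to 334 ± 92.1 FPKM (3.99 ± 0.213) and fell with IL-6 to 6.40 ± 0.0949 FPKM (-1.65 ± 0.213). Cd36, a scavenger receptor gene for fatty acids, rose with IL-4 from 311 ± 67.8 to 921 ± 256 FPKM (1.54 ± 0.241). With IL-6 Cd36 fell to 27.2 ± 2.65 FPKM (-3.50 ± 0.241). Axl, a receptor gene for clearing dead cells, fell in both treatments (-2.73 ± 0.513 for IL-4, -2.57 ± 0.513 for IL-6). Spp1, which encodes osteopontin, fell with IL-4 (-2.69 ± 0.190) and rose with IL-6 (1.90 ± 0.190), and Cst7, a cystatin gene, rose with IL-6 (2.11 ± 0.242). The median over the 20 genes was 0.76 for IL-4 and -0.64 for IL-6 (-0.20 and 0.00 over all tested genes).

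**Figure D5:**
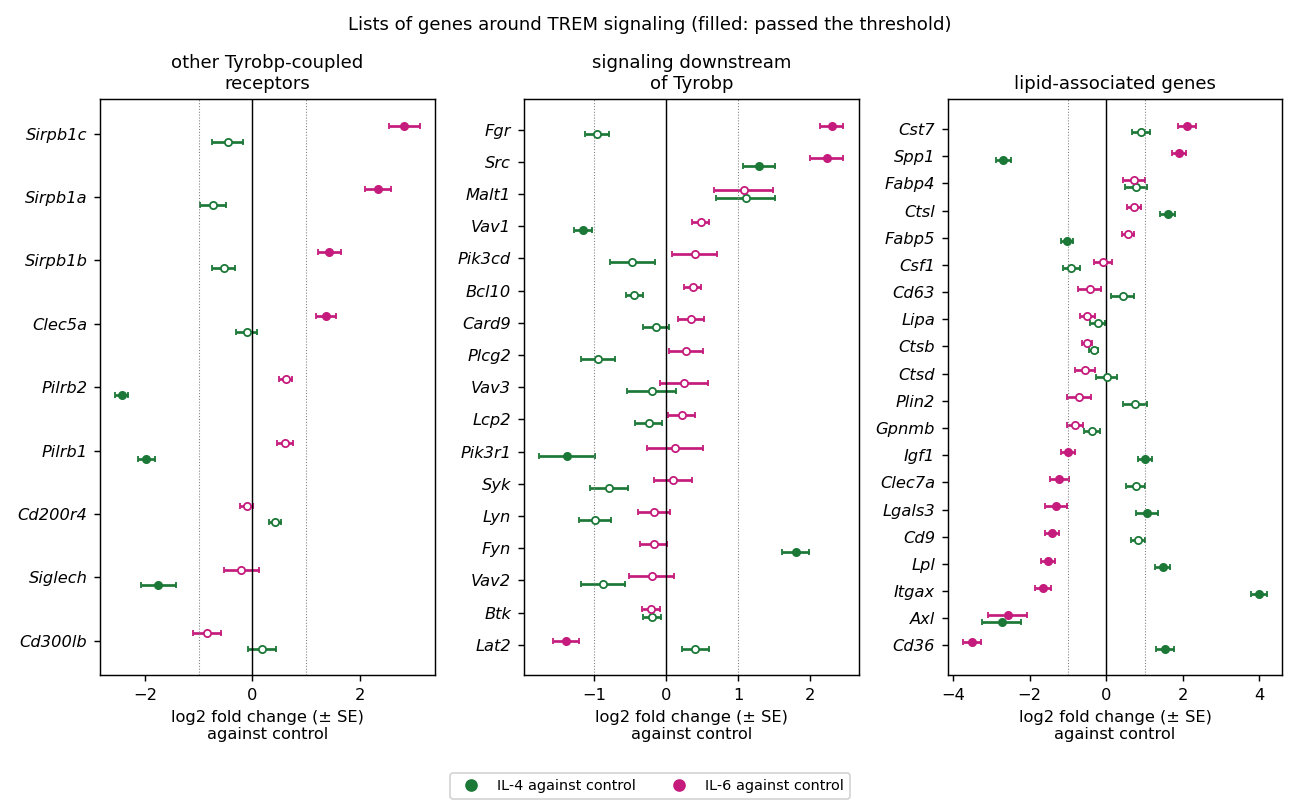
Log2 fold change of FPKM + 0.1 against control (x axis, with standard error) for the tested genes of 3 lists (y axis, ordered by the IL-6 value). Filled points passed the threshold and dotted lines mark a size of 1. Sirpb1c, Sirpb1a, Sirpb1b and Clec5a are filled on the IL-6 side, Pilrb2, Pilrb1 and Siglech on the IL-4 side, and Cd36 is lowest of the lipid-associated genes with IL-6 at -3.50.

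The calls of these named genes for IL-6 against control also moved with the set of libraries. With the set as a term 7 of the 16 remained, those of Sirpb1c, Fgr, Src, Ms4a6d, Cd36, Foxp4 and Socs3. Those of Sirpb1a, Sirpb1b, Lat2, Clu, Itgax, Axl, Spp1, Cst7 and Arg1 did not (adjusted p 0.0515 to 0.292). For IL-4 against control 13 of 18 remained, and those of Siglech, Pik3r1, Pglyrp1, Adam17 and Axl did not. Between the cytokines 28 of 28 remained, and Trem2 was then called lower with IL-6 (-1.20, adjusted p = 0.0202).

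Patterns most like each member were found by Pearson's r of log2(FPKM + 0.1) over the 9 libraries, which share treatment, set and depth, so r describes these libraries only. For Trem1 the first was Tnf, the gene of the inflammatory cytokine (r = 0.990), followed by Gm44418 and Gcnt2 (both 0.989). For Trem3 they were Ltf (0.996) and Prtn3 (0.994), which encode granule proteins of neutrophils and are on the neutrophil list, and Gm36161 (0.993). Treml2 was closest to Ltbp1 (0.994), Cavin2 and the kinase gene Fgr (both 0.991). Treml4 was closest to Szrd1 (0.995), Rgs3 and Mafg (both 0.994). For Trem2 they were Serpinb6a (0.995), a protease inhibitor gene, Nagk (0.992) and Fkbp3 (0.991). Tyrobp was closest to Ppcdc (0.990), Spag7 (0.987) and its neighbour Hcst (0.985).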

How the data were processed

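RNA-seq of 9 libraries (3 control, 3 IL-4, 3 IL-6) of bone marrow-derived Mϕs was analysed. The authors deposited FPKM per gene. The submitters' notes and the methods name STAR 2.4.2a, GRCm38, Cufflinks 2.2.1 and GENCODE M5. A stranded mRNA kit was used, but a strand setting for counting is not given in the sources used here. Of the 53379 identifiers, 50604 (94.8%) matched GENCODE M21 with their version. In matched genes, the 109682 values between 0 and 200 fragments were whole fragments over M21 exons in 100.0% of cases (within 0.05). Treml2 matched only without its version, so its fragments were not recovered. Cufflinks estimates abundances and need not give whole fragments, as counting reads does, so it is open which program and annotation produced these values. Library depth was read from these steps. Intervals were not computed, and depth bears on counting error alone.

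Values were analysed as log2(FPKM + 0.1). Genes with a mean of at least 0.5 FPKM were fitted with limma 3.58.1 (R 4.3.3), 3 groups in 1 model, with trend and robust moderation and Benjamini-Hochberg adjustment over 12824 genes. Adjusted p-values come from this test. Folds are ratios of mean FPKM. Errors are SD over 3 libraries or SE of the fit. Ratios were tested by two-sided exact permutation. Promoters came from RefSeq. Tables and plots used Python 3.11.15, pandas 2.3.3, scipy 1.17.1 and matplotlib 3.10.9.

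Column headers number the mice of each group from 1 to 3, and replicates were taken as 3 mice. Same-numbered libraries deviated together with r = 0.521, -0.415 and 0.0777 (control and IL-4), 0.408, 0.201 and 0.166 (control and IL-6) and 0.281, -0.0612 and 0.153 (IL-4 and IL-6). The replicate number as a block was an alternative. Others were pseudocounts of 1 and 0.01, no filter, a mean of at least 5 FPKM, median-ratio and quantile scaling, only the groups compared, the set of libraries as a term, voom on recovered fragments, adjusted p alone and leaving out each library. Removal of length and GC trends, the longest coding transcript as length, and IL-4 library 3 left out together with the block, were chosen after seeing the data.

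Members and lists were chosen with earlier results of these data known. Named genes are the members, up to 3 called genes with the largest fold change per list and comparison, Fcer1g, Hcst, Syk, Socs3, Arg1, and the 3 genes most like each member. Protein sequences were not used here, and 1 gene of the signaling list is not reported here.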

Additional observations from a re-analysis of the deposited data

How the results depend on the processing

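Of the members' calls, those of Trem3 and Treml4 for IL-4 against control and of Trem1, Trem3, Treml2 and Treml4 for IL-6 against IL-4 were kept wherever the gene was tested. Members called for IL-4 against control numbered 1 when a mean of at least 5 FPKM left 4 members to test, and members called for IL-6 against IL-4 then numbered 2. For IL-6 against control 0 were called by limma once the set was a term of the fit, and 1 of the 5 fitted after removal of length and GC trends, where Trem2 missed the threshold (adjusted p = 0.0544). Trem1, not called for IL-4 against control in the main fit, was called in 5 of 20 alternatives, voom among them (-1.05, adjusted p = 0.00654). Trem2 was called for IL-6 against control in 9 of 21 alternatives. Its adjusted p was 0.108 after median-ratio rescaling, 0.0864 with no filter, 0.0529 with a pseudocount of 0.01 and 0.0497 with voom. With the replicate block no call of a member or of a named list gene changed, and Trem2 was at an adjusted p of 0.0467. Apoe with IL-6 against control had the opposite sign after quantile normalization (0.06, adjusted p = 0.775), and the cause was not tested. Leaving out a library changed 3 to 6 of 99 calls of named list genes. With the longest coding transcript as length, chosen after seeing the data, the differences in Trem2 share were 0.913 (IL-4 against control), -5.0 (IL-6 against control) and -5.91 percentage points (IL-6 against IL-4), and those of the 4 receptors per Tyrobp were 0.0677, -0.253 and -0.321. Without Trem1 in the sum the share differed by -13.7 (IL-6 against control) and -17.2 points (IL-6 against IL-4). Among the other values 41 newly passed the threshold, 73 no longer passed, 3 moved by more than the SD of the groups and 2480 stayed as they were. Treml2 had no value with voom or after removal of trends. Groups of 3 libraries limit each exact permutation test to a p of 0.1, and 35 to 74 fragments stand behind Treml4 with IL-4.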
